A study of Homo sapiens with 16 samples.

Results

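The zinc finger genes of human chromosome 19 were followed through nuclear and cytoplasmic RNA of 2 liver cancer cell lines. The members were the protein-coding genes of chromosome 19 (GRCh38, GENCODE 29) whose symbol is ZNF followed by a number, with at most a single letter after it. They were 247 of the 67938 genes listed in both count tables, 83 on the short arm and 164 on the long arm. HepG2 and SNU-449 are human hepatoma lines, grown in DMEM and RPMI, respectively. Each line received either NC or siPANAD-1 together with siPANAD-2. NC is taken here as the comparison transfection, which the labels do not spell out. siPANAD-1 and siPANAD-2 are small interfering RNAs against PANAD, which the series title gives as another name of C7orf25. The mixture is called siPANAD here. RNA was taken after 48 h from cytoplasmic and nuclear extracts, in biological duplicates, which gave 8 groups of 2 libraries and 16 libraries in all. The groups were HepG2 cytoplasm and nucleus and SNU-449 cytoplasm and nucleus, each with NC and with siPANAD. The series as titled concerns PANAD and the export of messenger RNA from the nucleus.

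A zinc finger of the C2H2 type is a short loop of protein held by a zinc ion, and a row of such fingers reads a stretch of DNA. Most of these genes also encode a KRAB domain, which binds TRIM28, and TRIM28 brings the histone methyltransferase SETDB1 and heterochromatin proteins to the bound site. Many KRAB zinc finger proteins silence transposable elements, and the genes lie side by side in clusters that grew by duplication. Their messenger RNAs are known as scarce and short-lived.

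A KRAB motif was found in the translated coding sequence of 209 members and was not found in 38. The median number of C2H2 fingers was 13.0 with the motif and 9.5 without it. The coding sequence was poorer in G and C with the motif, with a median GC content of 41.5% against 62.6%. Neighbours lay close: with members at most 500 kb apart taken as 1 run, the 247 fell into 20 runs. The longest by count were ZNF264 to ZNF446 near the long arm's end with 43 members, ZNF175 to ZNF331 with 39, and ZNF101 to ZNF254 on the short arm with 37.

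Some neighbours on the short arm had similar promoter sequences. RefSeq start sites (GRCh38.p14) were available for 216 members, and the window searched ran from 250 bases before the start to 50 after it. Printed here, 5′ to 3′ on the gene's strand, are the 250 bases before the start of 4 members that were called in the same direction in both fractions of both lines: ZNF486 (chr19:20166964-20167213, plus strand), ZNF493 (chr19:21396883-21397132, plus strand), ZNF429 (chr19:21505352-21505601, plus strand) and ZNF837 (chr19:58381031-58381280, minus strand). ZNF486, ZNF493 and ZNF429 belong to the run on the short arm, and ZNF837 lies in the last run of the long arm. Capitals mark the longest word common to the printed 250 bases of those 3 short-arm genes, CCTGCCTGAAAAGGCTGCAGC, and the core of an ETS-type motif, CCGGAAG, or its other strand, CTTCCGG.
ZNF486: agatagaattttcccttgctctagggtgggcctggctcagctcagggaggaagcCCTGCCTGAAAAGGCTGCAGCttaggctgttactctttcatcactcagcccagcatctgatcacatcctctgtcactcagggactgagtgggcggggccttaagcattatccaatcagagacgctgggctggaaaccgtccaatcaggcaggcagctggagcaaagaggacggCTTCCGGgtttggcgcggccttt
ZNF493: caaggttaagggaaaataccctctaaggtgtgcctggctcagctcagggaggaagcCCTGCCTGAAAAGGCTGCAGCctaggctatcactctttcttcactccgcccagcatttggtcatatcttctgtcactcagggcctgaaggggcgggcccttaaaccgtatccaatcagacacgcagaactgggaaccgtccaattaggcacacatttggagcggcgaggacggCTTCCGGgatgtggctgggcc
ZNF429: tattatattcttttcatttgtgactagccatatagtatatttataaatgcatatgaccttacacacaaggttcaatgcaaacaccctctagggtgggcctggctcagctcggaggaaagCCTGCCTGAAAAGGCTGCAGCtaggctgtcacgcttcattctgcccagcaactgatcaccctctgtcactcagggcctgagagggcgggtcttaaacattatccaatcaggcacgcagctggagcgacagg
ZNF837: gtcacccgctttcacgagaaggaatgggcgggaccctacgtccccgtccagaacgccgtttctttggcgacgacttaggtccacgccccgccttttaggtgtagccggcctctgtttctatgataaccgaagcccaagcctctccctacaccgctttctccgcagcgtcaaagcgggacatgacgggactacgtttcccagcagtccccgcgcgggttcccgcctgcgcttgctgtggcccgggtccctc
The word begins 196 bases before the start in ZNF486, 194 in ZNF493 and 131 in ZNF429, and it is absent from the ZNF837 window. Searched on both strands, it occurred in 6 of the 216 member promoters (2.78%), all 6 among the 29 promoters of the short-arm run (20.7%), and in 7 of 15303 promoters of protein-coding genes (0.0457%). Its holders among the members were ZNF486, ZNF493, ZNF429, ZNF626, ZNF66 and ZNF91, a gene known for silencing SVA elements. ZNF486, ZNF493 and ZNF429 gave the word, so they hold it by construction, and the shares above count them. They were chosen after the expression values were seen. The 300-base windows were aligned in pairs with free end gaps, and identity was taken over the aligned columns alone. ZNF486 was 87.7% identical to ZNF626 over 302 columns, 80.9% to ZNF493 over 298 and 72.9% to ZNF429 over 255. Identity was computed among these 4 genes only.

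CCGGAAG, the core of the site read by ETS family activators, stood in a larger share of member promoters than of other promoters. Searched on both strands, it stood in 98 of 216 member promoters (45.4%), in 73 of 212 promoters of ZNF genes on other chromosomes (34.4%), in 124 of 946 of the other protein-coding genes of chromosome 19 (13.1%), and in 14.4% of the 15303 protein-coding promoters. TATAAA stood in 4 member promoters (1.85%) and in 9.59% of protein-coding ones. These are matches of letters and show no binding.

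The members were weakly expressed. The libraries held 16238235 to 30321908 counts in all and the members 23762 to 103512 of them, with a median of 36 to 78 counts per member in a cytoplasmic library and 123 to 268 in a nuclear one. A count of 0 allows up to 3 counts, 0.0989 to 0.185 CPM (counts scaled to a common library total) depending on the library; this covers counting error only. Of the members, 207 passed the filter on low counts in HepG2, 226 in SNU-449 and 202 in both. A further 16 passed in neither line, and ZNF208, ZNF471 and ZNF728 had no count in any library. ZNF14, ZNF257, ZNF541, ZNF556 and ZNF781 passed in HepG2 only. Another 24 passed in SNU-449 only. Exon bases are shared with another gene by 137 of the 247 members, and 11 have over 50% of their 50-base words elsewhere in the transcriptome, so their reads may be split. The median of the members' mean level was 6.10 CPM (scaled by TMM, as are all levels of single genes here) in HepG2, against 14.0 over all genes tested, and 9.39 against 11.7 CPM in SNU-449. Per kilobase of exon, the highest members in NC cytoplasm were ZNF787, at a mean of 73.1 in HepG2 and 106 CPM per kb in SNU-449, and ZNF581, at 47.4 and 101. Neither has a KRAB motif. ZNF428, with a single finger, reached 75.8 CPM per kb in SNU-449 cytoplasm, and ZNF146, a protein made almost only of fingers, 21.5 in HepG2 cytoplasm.

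Labels and fractions were checked on other genes. The nuclear RNA MALAT1 was at 2.21 to 5.84 CPM in cytoplasmic and 370 to 634 CPM in nuclear libraries, and GAPDH messenger RNA at 4045 to 5934 and 884 to 1365 CPM. NEAT1, the other nuclear marker, was at 55.4 to 89.6 CPM in HepG2 cytoplasm and 4.77 to 12.3 in SNU-449 cytoplasm. In HepG2 nuclei it was at 1168 and 1344 CPM with NC and at 3274 and 2875 with siPANAD. In SNU-449 nuclei it was at 547 and 563 CPM with NC and at 2526 and 2682 with siPANAD. MALAT1 in SNU-449 nuclei was at 409 and 409 CPM with NC and at 634 and 593 with siPANAD. C7orf25 had 0 to 7 counts in every library, so the knockdown could not be checked. Of 11 hepatocyte markers all reached 1 CPM in HepG2 and 3 in SNU-449, where APOB was at 0 and the list summed to 21.4 to 277 CPM, against 25207 to 34565 CPM in HepG2. Mesenchymal markers reached 1 CPM for 8 of 8 in SNU-449 and 5 of 8 in HepG2, but their sums overlapped, at 1617 to 4194 and 1158 to 7543 CPM. Immune and blood markers reached 1 CPM for 2 of 7 in HepG2, with a sum of 89.7 to 508 CPM, and for 0 of 7 in SNU-449, where CD3E and HBB were at 0.

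The first question was where these RNAs stood in NC cells. Summed over the 247 members, HepG2 held 1447 and 1443 CPM in the NC cytoplasm libraries and 3447 and 3129 CPM in the nucleus. SNU-449 held 2016 and 1945 CPM in the cytoplasm and 5066 and 5272 in the nucleus. The nuclear libraries were above the cytoplasmic ones without overlap in both lines, by 2.28-fold in HepG2 (3288 ± 225 against 1445 ± 2.86 CPM; SD, n = 2 each) and 2.61-fold in SNU-449 (5169 ± 146 against 1980 ± 50.2 CPM). Most of this excess lay in the members with a KRAB motif. They were 3.57-fold higher in the HepG2 nucleus (2419 ± 205 against 677 ± 44.6 CPM) and 4.33-fold in SNU-449 (3846 ± 144 against 887 ± 38.2). Members without the motif were at 869 ± 19.5 against 767 ± 47.5 CPM in HepG2, a ratio of 1.13, and at 1322 ± 1.70 against 1093 ± 12.1 in SNU-449, a ratio of 1.21. ZNF genes of other chromosomes, summed in the same way, were 2.28-fold higher in the HepG2 nucleus and 2.51-fold in SNU-449, near the ratios of all members. CPM is a share of each fraction's own RNA. A nuclear excess is therefore relative to the other RNAs of the 2 fractions and gives no number of molecules per cell; fewer cells and less RNA per cell cannot be told apart.

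**Figure D1:**
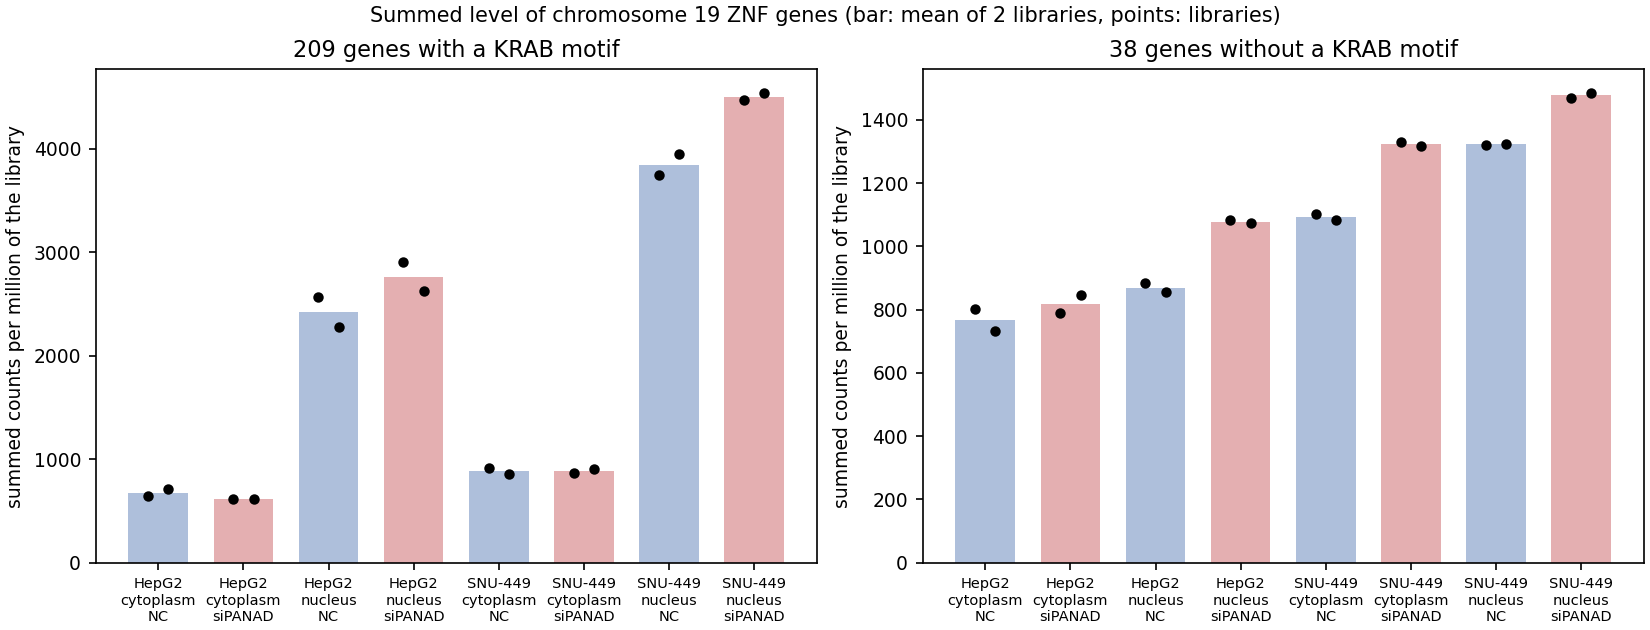
Summed level of the members in each of the 16 libraries, in CPM of the library total, for the 209 members with a KRAB motif and the 38 without; each point is 1 library. KRAB members sit between 616 and 914 CPM in the cytoplasmic libraries and between 2274 and 4541 CPM in the nuclear ones.

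Gene by gene, the members leaned to the nucleus in both lines. Each gene was tested with edgeR's quasi-likelihood test and called at a Benjamini-Hochberg adjusted p under 0.05 over all genes. In HepG2, 144 of 207 members were higher in the NC nucleus (69.6%) and 25 in the cytoplasm (12.1%), where 39.4% and 37.7% of all genes tested were called; both directions together made 169 members, with 77.1% of all genes called. In SNU-449, 166 of 226 members were higher in the nucleus (73.5%) and 30 in the cytoplasm (13.3%), against 43.5% and 36.2% of all genes, and 196 in all, with 79.8% of all genes called. The median log2 ratio of nucleus to cytoplasm was 1.03 in HepG2 and 1.30 in SNU-449, beside 0.04 and 0.22 over all genes tested and -0.19 and -0.02 over protein-coding genes.

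With a KRAB motif, 129 of 172 members in HepG2 were higher in the nucleus and 12 in the cytoplasm, with a median log2 ratio of 1.16. In SNU-449 these were 151 and 18 of 191, with a median of 1.48. Without the motif, 15 of 35 were higher in the nucleus and 13 in the cytoplasm in HepG2, and 15 and 12 of 35 in SNU-449, with medians of 0.06 and 0.17. ZNF genes of other chromosomes lay between these, with medians of 0.65 and 1.02. The other protein-coding genes of chromosome 19 had medians of -0.29 and -0.50, on the cytoplasmic side. Restricted to members with at most 10% of exon bases overlapping another gene and at most 10% of 50-base words shared with one, 90 of 134 were higher in the nucleus in HepG2 and 105 of 142 in SNU-449, with medians of 0.86 and 1.24.

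**Figure D2:**
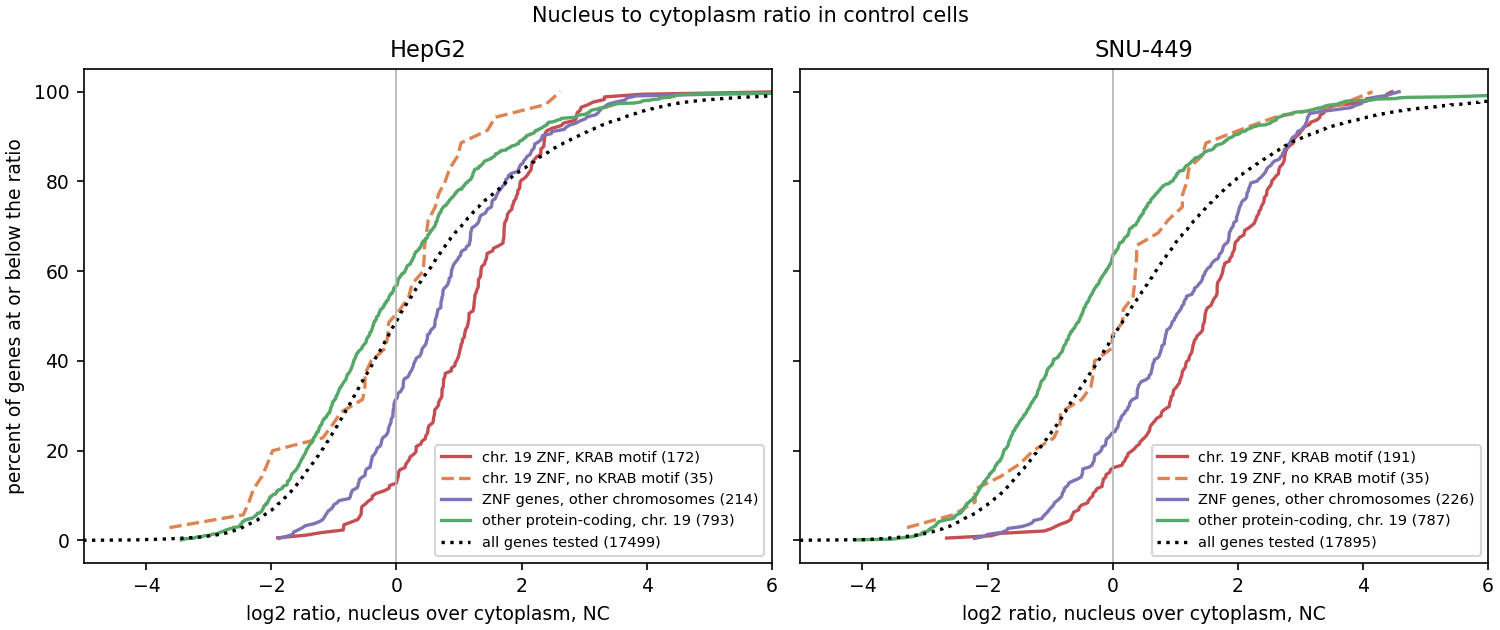
Distribution of the log2 ratio of nucleus to cytoplasm in NC cells, in each line. The curves are for KRAB members, members without the motif, ZNF genes of other chromosomes, other protein-coding genes of chromosome 19 and all genes tested. KRAB members have medians of 1.16 in HepG2 and 1.48 in SNU-449; the other genes of chromosome 19 have medians of -0.29 and -0.50.

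A log2 ratio above 1 was reached by 106 of 207 members in HepG2 (51.2%, against 30.5% of all genes) and by 137 of 226 in SNU-449 (60.6% against 33.9%). Among protein-coding genes alone these shares were 21.8% and 26.5%. Above 3 there were 6 members in HepG2 (2.90%, against 9.22% of all genes and 3.88% of protein-coding ones) and 20 in SNU-449 (8.85%, against 10.5% and 4.74%), so in SNU-449 the members' share was under that of all genes and above that of protein-coding genes. Of the 202 members tested in both lines, 127 were nuclear in both (62.9%, against 31.5% of 15017 genes) and 16 cytoplasmic in both (7.92% against 30.9%). Calls in opposite directions concerned 9 members. ZNF444, ZNF530, ZNF813 and ZNF28 were higher in the HepG2 nucleus and the SNU-449 cytoplasm (1.98%, against 2.14% of genes), and ZNF563, ZNF772, ZNF627, ZNF580 and ZNF134 the other way round (2.48% against 3.54%). As a description over members, which share libraries, the log2 ratios of the 2 lines had a Spearman correlation of 0.74 (n = 202), and all genes tested in both had 0.83 (n = 15017). Across members the ratio had a Spearman correlation of -0.38 with coding GC content in HepG2 (n = 207) and -0.30 in SNU-449 (n = 226), which was -0.18 and -0.11 within the KRAB members.

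The strongest nuclear excess in SNU-449 among members above the level floor of 1 CPM was that of ZNF331, an imprinted gene. Its TMM-scaled CPM in SNU-449 was 2.93 and 2.48 in the NC cytoplasm and 56.1 and 63.8 in the nucleus, a log2 ratio of 4.47 ± 0.16 (SE). In HepG2 it was 9.47 and 7.52 in the cytoplasm and 37.1 and 34.5 in the nucleus, a log2 ratio of 2.09 ± 0.15. ZNF814 led in HepG2, with 0.94 and 1.17 CPM in the cytoplasm and 17.3 and 15.6 in the nucleus, a log2 ratio of 3.92 ± 0.22; in SNU-449 its log2 ratio was 1.68. These genes thus stood nuclear in both lines, with the line of the larger excess exchanged. ZNF224, a repressor described at the aldolase A gene, had log2 ratios of 3.14 and 4.39, but 40.5% of its exon bases overlap a gene on the other strand and 48.3% of its 50-base words occur elsewhere. ZNF682 had 2.89 and 4.38, ZNF493 3.33 and 4.06, and ZNF841 2.95 and 2.98, in HepG2 and SNU-449, respectively. ZNF83, whose coding sequence carries no KRAB motif, had 2.38 and 4.16.

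At the other end stood mostly members without a KRAB motif. ZNF787, with 7 fingers, had 297 and 240 CPM in the HepG2 NC cytoplasm and 41.9 and 56.2 in the nucleus, a log2 ratio of -2.45 ± 0.17, and in SNU-449 370 and 410 against 96.0 and 74.1, a log2 ratio of -2.20 ± 0.10. ZNF576, with 4 fingers, had 30.9 and 28.6 CPM in the HepG2 cytoplasm and 5.86 and 6.30 in the nucleus. In SNU-449 it had 119 and 113 against 12.7 and 11.1, a log2 ratio of -3.29 ± 0.12. For both genes every cytoplasmic NC library lay above every nuclear one of its line. ZNF524, ZNF581 and ZNF428 were on the same side in both lines, with log2 ratios of -2.36 and -2.55, -2.15 and -1.27, and -1.98 and -2.20. ZNF71 was an exception among KRAB members, with -1.90 in HepG2 and -2.65 in SNU-449. ZNF541 had the most cytoplasmic fitted ratio among HepG2 members named here, at -3.63, from a nuclear level of 0 and 0.0941 CPM, so the fitted value depends on the prior count.

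The ratio of nucleus to cytoplasm differed between the lines for 88 of 231 members tested in the joint model, in which 33.3% of all genes were called. It was higher in SNU-449 for 61 (26.4%, against 20.0% of all genes) and lower for 27 (11.7% against 13.4%). The median log2 difference was 0.28 for members and 0.14 for all genes. This split moved with the scaling: with RLE size factors 53 were higher and 37 lower, the median of all genes moved from 0.14 to -0.03, and that of the members from 0.28 to 0.14. ZNF331 had a log2 difference of 2.40 ± 0.23 (adjusted p = 7.5e-12) and ZNF814 one of -2.21 ± 0.28 (adjusted p = 9.1e-09). ZNF350, a BRCA1-interacting repressor also named ZBRK1, had a log2 ratio of 0.46 in HepG2 and 2.91 in SNU-449, a difference of 2.48 (adjusted p = 2.4e-08). ZNF577 and ZNF823 followed with differences of 2.22 and 2.19. In the other direction ZNF586 had log2 ratios of 3.06 in HepG2 and 0.92 in SNU-449, and ZNF324 had 1.72 and -0.15. ZNF121, which was nuclear in both lines, had 1.58 and 3.65, a difference of 2.10 (adjusted p = 3.3e-12).

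**Figure D3:**
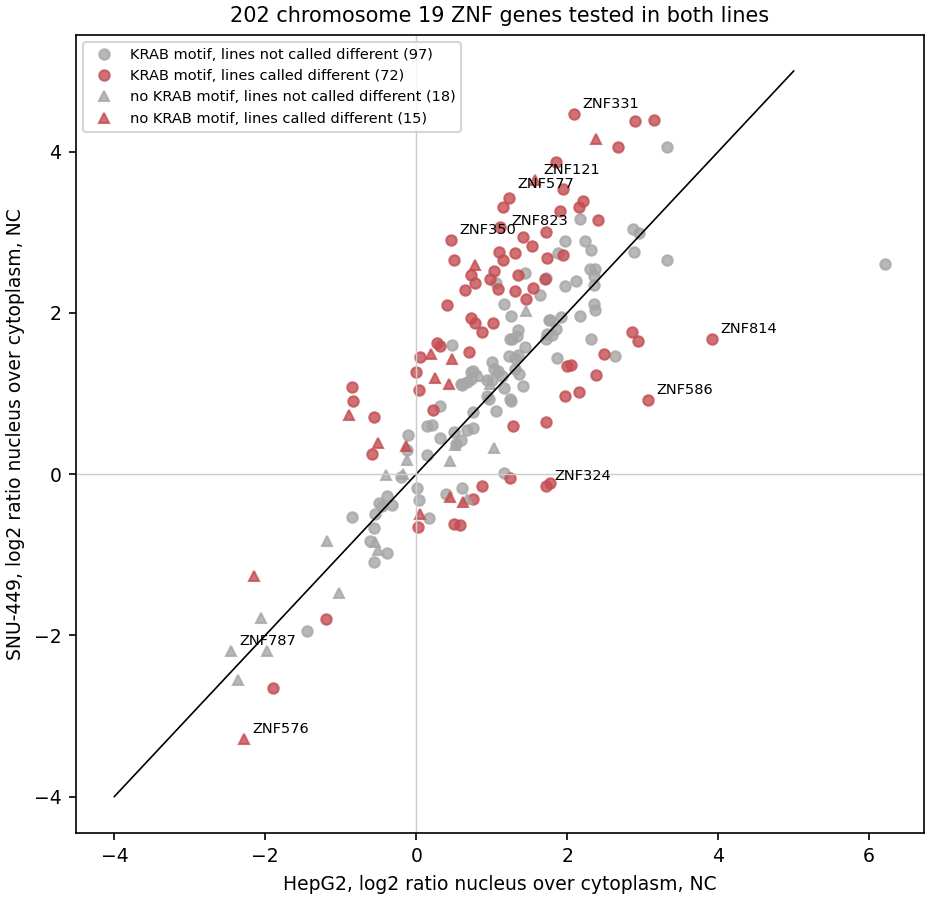
Log2 ratio of nucleus to cytoplasm in NC cells for each member tested in both lines, HepG2 on the horizontal and SNU-449 on the vertical axis, with members whose ratio differed between the lines marked. ZNF331 lies at 2.09 and 4.47, ZNF814 at 3.92 and 1.68, and ZNF576 at -2.29 and -3.29; the point at a HepG2 value of 6.21 is ZNF404, with 0 counts in both HepG2 NC cytoplasm libraries.

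The ratio varied between the runs along the chromosome. In the short-arm run ZNF101 to ZNF254 (chr19:19668796-24129961), 35 of 37 members carry a KRAB motif. In HepG2, 22 of its 26 tested members were nuclear and 0 cytoplasmic, against 39.4% and 37.7% of all genes. In SNU-449, 24 of 30 were nuclear and 1 cytoplasmic, against 43.5% and 36.2% of all genes. The median log2 ratios of the run were 1.23 in HepG2 and 1.62 in SNU-449. The run ZNF575 to ZNF180 (chr19:43525497-44500524) had the highest medians among runs of 13 or more members, 1.88 in HepG2 and 2.61 in SNU-449. The run ZNF628 to ZNF835 (chr19:55476332-56671783), where 6 of 16 carry the motif, had medians of -1.03 and -0.72, the only run of that size on the cytoplasmic side in both lines. ZNF787, ZNF524, ZNF581 and ZNF71 lie in it.

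**Figure D4:**
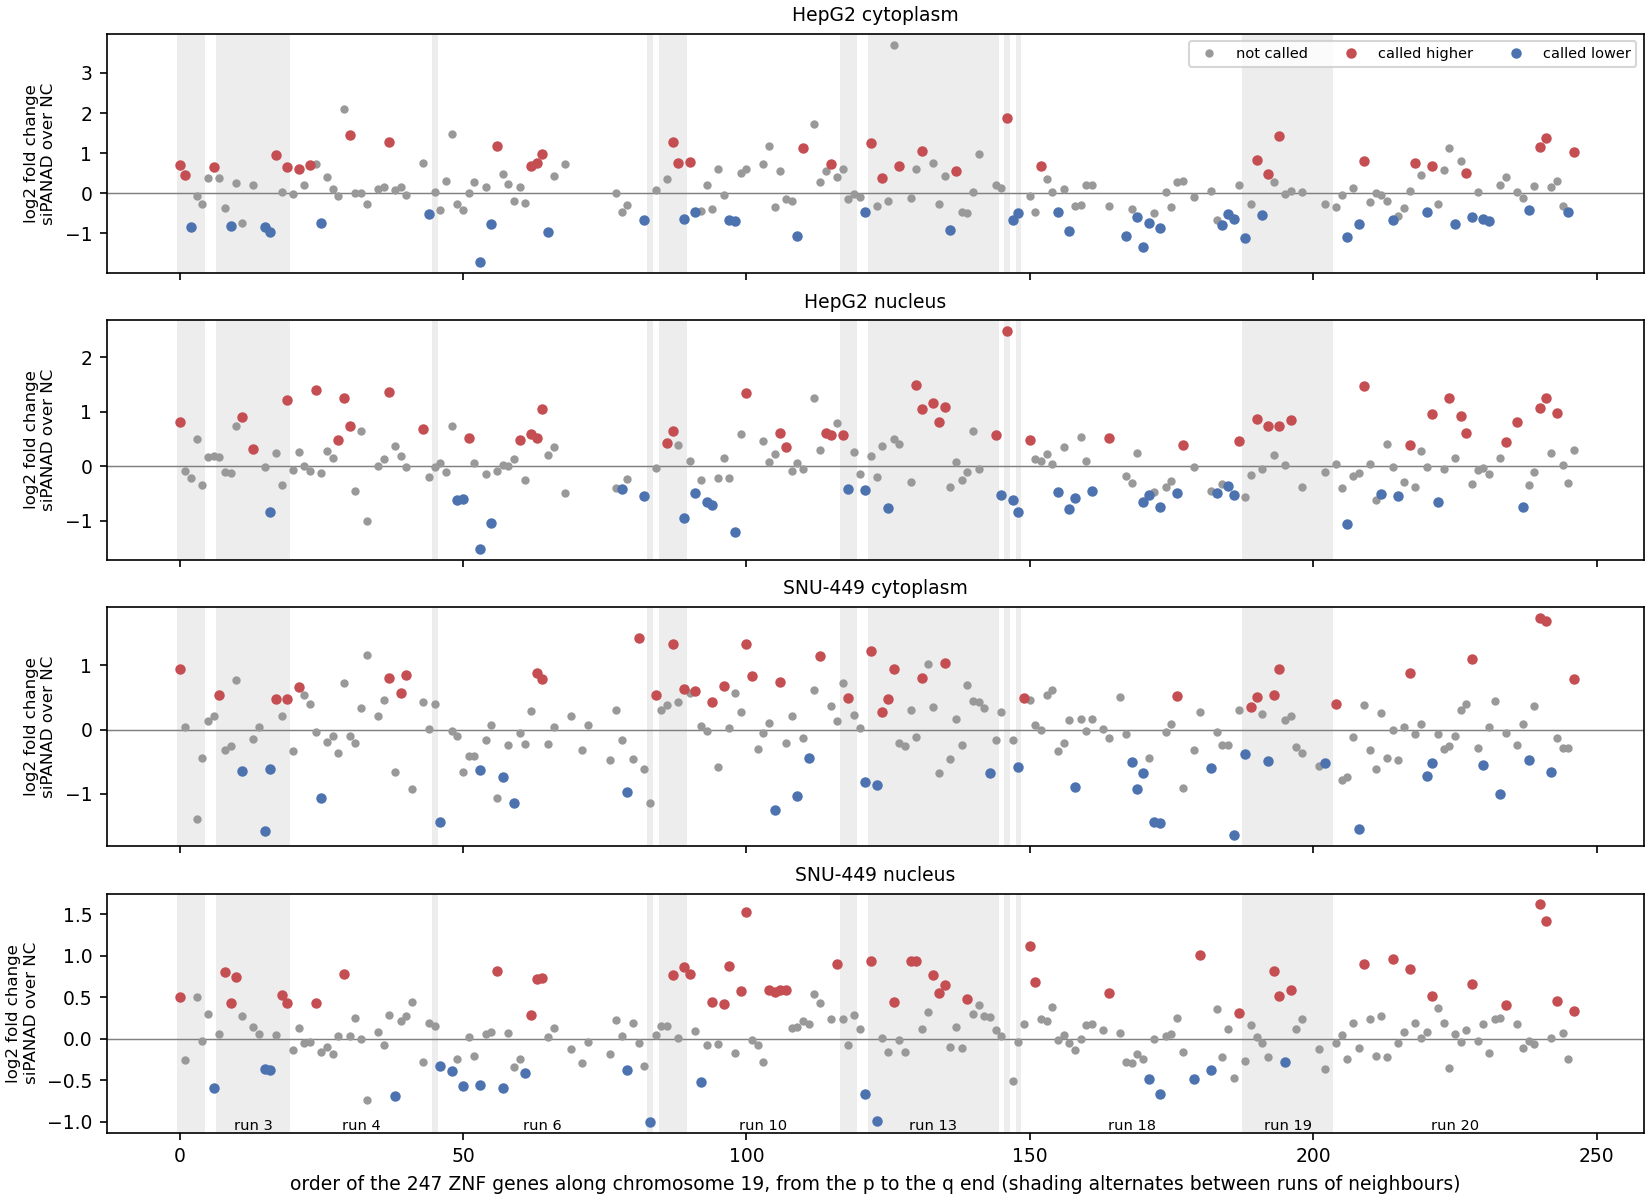
Members in their order along chromosome 19 with the log2 fold changes of siPANAD against NC, in the cytoplasm and nucleus of each line. The run ZNF175 to ZNF331 has medians of -0.31 in the HepG2 cytoplasm and -0.29 in the HepG2 nucleus. Its medians in SNU-449 are -0.05 in the cytoplasm and 0.04 in the nucleus.

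The second question was what siPANAD changed in each fraction. The siPANAD libraries of the 2 lines have their own NC libraries, but the fractions of a line and the ratios within it rest on shared groups. Summed over members, siPANAD gave 1406 and 1462 CPM in the HepG2 cytoplasm, where the values overlap those of NC, and 3991 and 3696 in the HepG2 nucleus, both above NC, a ratio of 1.17. In SNU-449 it gave 2199 and 2225 CPM in the cytoplasm and 5938 and 6027 in the nucleus, above NC without overlap in both fractions, with ratios of 1.12 and 1.16. In SNU-449 the KRAB members' sum had a ratio of siPANAD to NC of 1.17 in the nucleus and 1.002 in the cytoplasm. Members without the motif had 1.12 in the SNU-449 nucleus and 1.21 in its cytoplasm. In HepG2 the order in the nucleus was the other way, with 1.14 for KRAB members and 1.24 for those without the motif, and in the cytoplasm the ratios were 0.910 and 1.06. ZNF genes of other chromosomes, summed in the same way, had ratios of 1.11 in the HepG2 nucleus and 1.13 in the SNU-449 nucleus. In the cytoplasm their ratios were 0.829 in HepG2 and 0.977 in SNU-449. These sums carry no test.

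The share of members that rose was near the share over all genes or under it, and the share that fell was under it in each of the 4 comparisons; the difference between members and other genes was not tested. In the HepG2 cytoplasm 35 of 207 members rose (16.9%, against 23.7% of all genes) and 41 fell (19.8% against 24.2%). In the HepG2 nucleus 49 rose (23.7% against 22.0%) and 34 fell (16.4% against 23.6%). In the SNU-449 cytoplasm 40 of 226 rose (17.7% against 19.6%) and 34 fell (15.0% against 20.1%). In the SNU-449 nucleus 51 rose (22.6% against 22.1%) and 20 fell (8.85% against 23.9%). In all, 76, 83, 74 and 71 members were called in these 4 comparisons, in which 47.9%, 45.6%, 39.7% and 46.0% of all genes were called. The medians over members were 0.03, 0.03, -0.01 and 0.08 on the log2 scale. With single libraries left out, the calls went from 76 to 42 in the HepG2 cytoplasm without siPANAD replicate 1, from 83 to 52 in the HepG2 nucleus without NC replicate 1 or without siPANAD replicate 2, and from 71 to 46 in the SNU-449 nucleus without siPANAD replicate 1; DESeq2 called 47 in the HepG2 nucleus.

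Large changes made up a smaller share of the members than of all genes. Called and beyond a log2 change of 1 were 12 rises (5.80%, against 11.5% of all genes) and 6 falls (2.90% against 8.81%) in the HepG2 cytoplasm, and 15 (7.25% against 10.1%) and 4 (1.93% against 6.68%) in the HepG2 nucleus. In the SNU-449 cytoplasm there were 9 (3.98% against 5.62%) and 11 (4.87% against 5.60%). In the SNU-449 nucleus there were 5 (2.21% against 7.33%) and 1 (0.442% against 4.33%). The rises in the SNU-449 nucleus were ZNF345, ZNF497, ZNF577, ZNF665 and ZNF837; ZNF665 was not called without NC replicate 1 of that nucleus, nor by DESeq2. The fall was ZNF536, a repressor known from neuronal differentiation, which went from 1.59 and 1.49 to 0.812 and 0.721 CPM, and which was not called without NC replicate 1 or without siPANAD replicate 2 of that nucleus, nor by DESeq2 (adjusted p = 0.15).

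Calls in both fractions of a line were counted next. In HepG2, 19 of 207 members rose in both fractions (9.18%, against 13.8% of all genes) and 18 fell in both (8.70% against 15.7%). In SNU-449, 20 of 226 rose in both (8.85% against 9.23%) and 10 fell in both (4.42% against 12.3%), which were ZNF85, ZNF576, ZNF426, ZNF526, ZNF101, ZNF675, ZNF121, ZNF468, ZNF845 and ZNF486. Opposite calls in the fractions of a line were made for ZNF211 and ZNF585B alone, lower in the cytoplasm and higher in the nucleus of SNU-449 (0.885% against 1.08%).

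A group of 12 members moved the same way in both fractions of both lines. Of the 202 tested in both lines 8 rose in all 4 comparisons (3.96%, against 4.14% of 15017 genes) and 4 fell (1.98% against 6.03%). The risers were ZNF837, ZNF497, ZNF429, ZNF599, ZNF493, ZNF581, ZNF554 and ZNF846, and the fallers ZNF468, ZNF486, ZNF526 and ZNF121.

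ZNF837, with 8 fingers, no KRAB motif and no exon overlap, was among the strongest risers in each comparison. Its CPM in the HepG2 cytoplasm was 2.02 and 1.98 with NC and 4.80 and 5.57 with siPANAD, a log2 change of 1.37 ± 0.24 (adjusted p = 4.4e-05). In the HepG2 nucleus it was 1.38 and 1.36 against 3.13 and 3.46, a log2 change of 1.26 ± 0.25 (adjusted p = 0.00021). In the SNU-449 cytoplasm it was 7.77 and 5.53 against 22.3 and 20.7, a log2 change of 1.69 ± 0.16 (adjusted p = 9.6e-11), and in the nucleus 3.53 and 3.87 against 9.49 and 10.3, a log2 change of 1.41 ± 0.17 (adjusted p = 1.3e-08). The groups did not overlap in any of the 4, which the rule for naming the largest called changes required. All 4 calls held without each library in turn.

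ZNF581, a 4-finger gene and one of the most abundant members, rose most in the cytoplasm. HepG2 cytoplasm went from 90.4 and 74.1 to 221 and 219 CPM, a log2 change of 1.42 ± 0.13 (adjusted p = 1.5e-09), and the nucleus from 17.4 and 19.6 to 30.9 and 30.7, a change of 0.74 (adjusted p = 9.2e-05). SNU-449 cytoplasm went from 176 and 175 to 342 and 331 CPM, a log2 change of 0.94 ± 0.09 (adjusted p = 5.7e-11), and the nucleus from 70.2 and 75.4 to 103 and 104, a change of 0.51 (adjusted p = 1.5e-05). A share of 23.4% of its exon bases overlap another gene on the same strand. ZNF599, a KRAB member with 14 fingers, went from 2.10 and 3.11 to 7.20 and 5.80 CPM in the HepG2 cytoplasm (log2 change 1.27 ± 0.24) and from 4.69 and 4.18 to 10.5 and 11.9 in the SNU-449 cytoplasm (1.34 ± 0.18). Its nuclear changes were 0.65 and 0.76, the former not called without HepG2 nucleus NC replicate 1 or siPANAD replicate 1, nor by DESeq2.

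ZNF497, without a KRAB motif, rose from 2.05 and 2.41 to 7.04 and 7.87 CPM in the SNU-449 cytoplasm, a log2 change of 1.74 ± 0.22 (adjusted p = 5.9e-08), and from 2.58 and 3.02 to 7.86 and 9.37 in the nucleus, a change of 1.62 ± 0.18. In HepG2 its changes were 1.14 in the cytoplasm and 1.07 in the nucleus; the former was not called without cytoplasm NC replicate 2 or siPANAD replicate 1. It overlaps other exons over 24.0% of its bases on its own strand and 29.3% on the other, so its reads may be shared. ZNF554 had log2 changes of 0.70, 0.82, 0.94 and 0.51 in HepG2 cytoplasm, HepG2 nucleus, SNU-449 cytoplasm and SNU-449 nucleus. Its first call was lost without NC replicate 1 or siPANAD replicate 1 of that fraction, and its last without NC replicate 2 or either siPANAD replicate, and with DESeq2. ZNF846 had 0.65, 1.21, 0.47 and 0.43, and the HepG2 nucleus call alone held in every alternative run; the HepG2 cytoplasm call was lost without any of the 4 HepG2 cytoplasm libraries, the SNU-449 cytoplasm call without NC replicate 1 or either siPANAD replicate of that fraction or either siPANAD replicate of the nucleus, and the SNU-449 nucleus call without either NC replicate or siPANAD replicate 2. DESeq2 made none of these 3 calls, the cytoplasmic calls of both lines were lost without the filter on low counts, and the SNU-449 cytoplasm call was lost with the replicate block (adjusted p = 0.052).

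The short-arm neighbours whose promoters are printed above did not move together. ZNF486, with 9 fingers, fell from 6.87 and 6.99 to 2.16 and 2.04 CPM in the HepG2 cytoplasm, a log2 change of -1.72 ± 0.23 (adjusted p = 1.1e-06), and from 5.61 and 5.46 to 2.03 and 1.84 in the nucleus, a change of -1.51 ± 0.22 (adjusted p = 2.8e-06). In SNU-449 it fell from 32.6 and 28.2 to 18.2 and 21.2 CPM in the cytoplasm, a change of -0.63 ± 0.13, and from 22.9 and 23.7 to 16.1 and 15.5 in the nucleus, a change of -0.56 ± 0.12. The fall differed between the lines, by 1.06 in the cytoplasm (adjusted p = 0.0025) and 0.93 in the nucleus (adjusted p = 0.003). All 4 calls held without each library. ZNF493, with 19 fingers and a promoter 80.9% identical, rose instead: in the SNU-449 nucleus it went from 29.7 and 27.0 to 44.7 and 48.9 CPM, a log2 change of 0.72 ± 0.12 (adjusted p = 4.8e-06).

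The other ZNF493 changes were 0.76 in the HepG2 cytoplasm, 0.52 in the HepG2 nucleus and 0.88 in the SNU-449 cytoplasm. At 1.23 and 1.09 CPM in the HepG2 NC cytoplasm it is scarce there, and that call was lost without any of the 4 cytoplasm libraries or either nucleus siPANAD library, with DESeq2 and without the filter on low counts. The HepG2 nucleus call was lost without NC replicate 2 or either siPANAD replicate and with DESeq2, and the SNU-449 cytoplasm call without NC replicate 2 or siPANAD replicate 1. ZNF429 had rises of 0.98, 1.06, 0.78 and 0.73 in HepG2 cytoplasm, HepG2 nucleus, SNU-449 cytoplasm and SNU-449 nucleus, from 9.98 and 8.69 to 15.9 and 15.1 CPM in the last. Its first was lost without NC replicate 2 of the HepG2 cytoplasm, its second without NC replicate 2 of the HepG2 nucleus, and its SNU-449 cytoplasm call without siPANAD replicate 2. ZNF626, whose promoter is 87.7% identical to that of ZNF486, fell in HepG2 by 0.77 in the cytoplasm and 1.04 in the nucleus, while in SNU-449 its changes were 0.08 and 0.09 (adjusted p = 0.81 and 0.73). Among the 6 holders of the shared word, 3 rose and 2 fell in the HepG2 cytoplasm, 2 and 3 in the HepG2 nucleus, 2 and 1 in the SNU-449 cytoplasm and 3 and 1 in the SNU-449 nucleus, comparisons in which 19.6% to 23.7% of all genes rose and 20.1% to 24.2% fell; 6 genes are too few to set against these shares.

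Of the other fallers, ZNF121, a protein reported to bind MYC, went from 21.0 and 25.01 to 11.4 and 12.5 CPM in the HepG2 cytoplasm, a log2 change of -0.96 ± 0.15 (adjusted p = 1.2e-05), and from 76.2 and 61.9 to 39.7 and 38.0 in the HepG2 nucleus, a change of -0.83 (adjusted p = 1.4e-05). In SNU-449 the changes were -0.61 and -0.38. ZNF526 fell most in SNU-449, from 44.1 and 42.7 to 24.5 and 24.96 CPM in the cytoplasm (log2 change -0.81, adjusted p = 6.4e-07) and from 22.4 and 22.9 to 13.2 and 15.2 in the nucleus (-0.67), with -0.47 and -0.43 in HepG2. Neither carries a KRAB motif, and for both all 4 calls held without each library. ZNF468, a KRAB member with 53.3% of its exon bases shared with a gene on the same strand, went from 10.0 and 10.6 to 3.79 and 3.72 CPM in the SNU-449 cytoplasm, a log2 change of -1.46 ± 0.19 (adjusted p = 8.5e-08); its other changes were -0.88, -0.75 and -0.67, the last, in the SNU-449 nucleus, lost without siPANAD replicate 1.

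**Figure D5:**
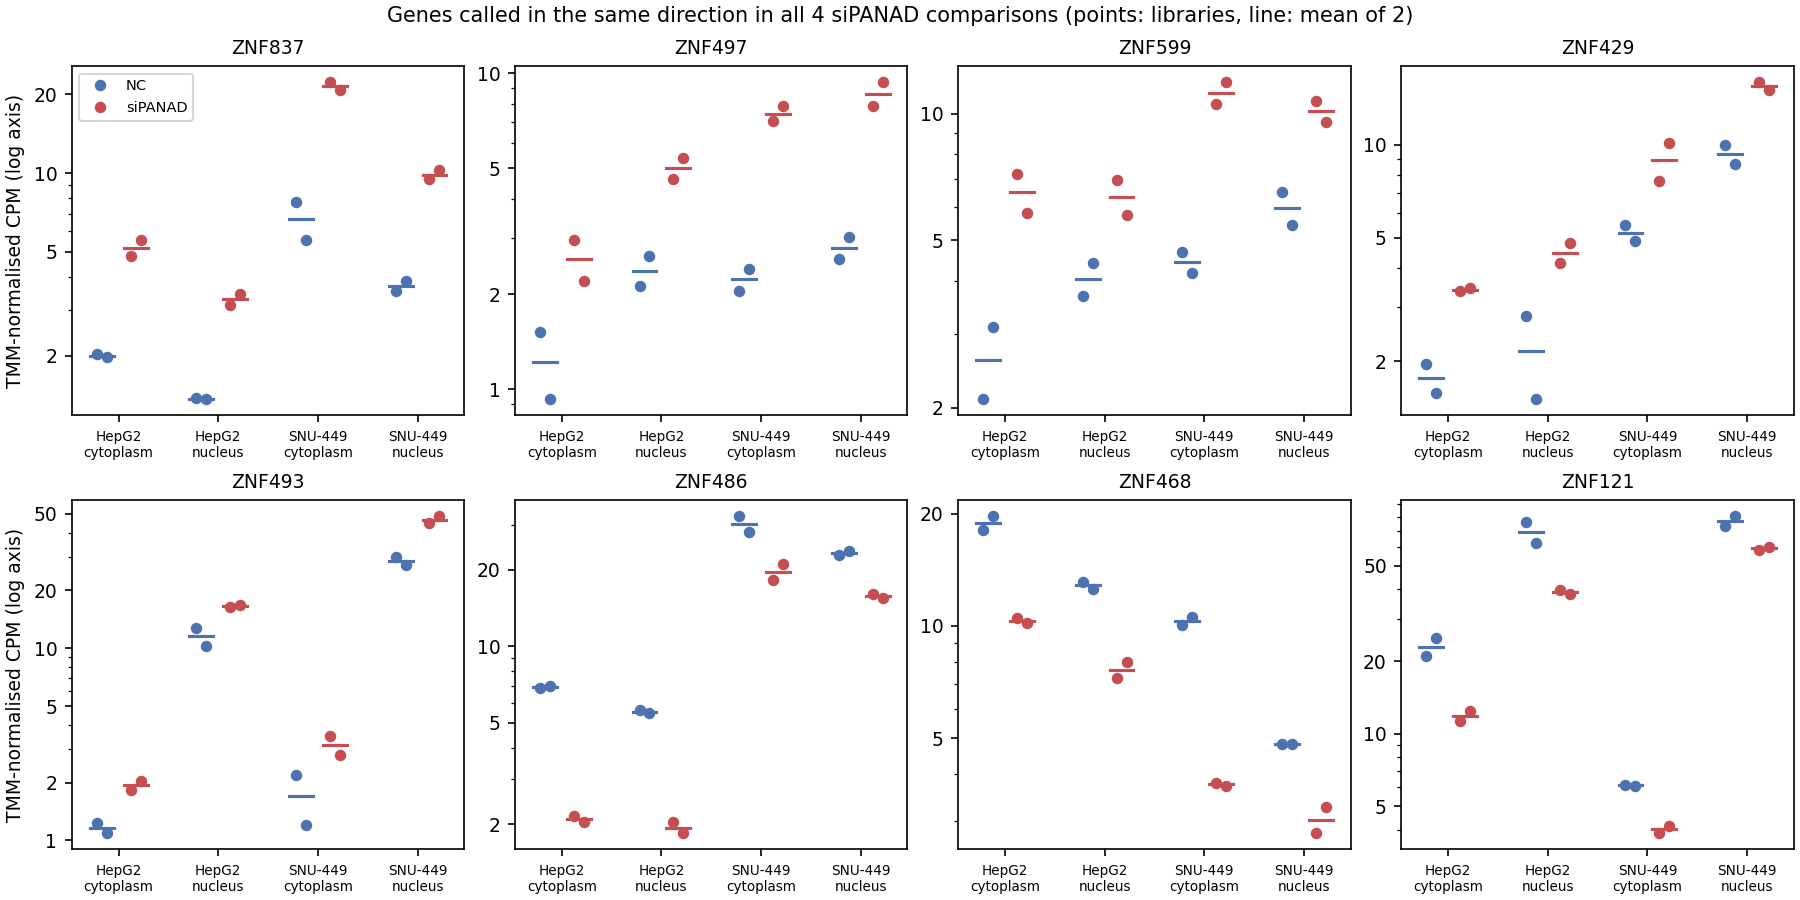
TMM-scaled CPM on a log axis of 8 of the 12 members called in the same direction in all 4 comparisons (ZNF837, ZNF497, ZNF599, ZNF429, ZNF493, ZNF486, ZNF468 and ZNF121); each point is 1 library and each line the mean of 2, with NC and siPANAD side by side in each fraction and line. ZNF837 rises from 2.02 and 1.98 to 4.80 and 5.57 CPM in the HepG2 cytoplasm, and ZNF486 falls from 6.87 and 6.99 to 2.16 and 2.04.

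In the nuclei, rises shared by the lines outnumbered shared falls. In the nucleus of both lines, 27 of 202 members rose (13.4%, against 10.1% of 15017 genes) and 6 fell (2.97% against 11.5%). In the cytoplasm of both lines, 16 rose (7.92% against 10.9%) and 16 fell (7.92% against 12.7%). Shared calls were not counted for ZNF genes of other chromosomes. ZNF547 rose in the HepG2 nucleus from 5.07 and 5.50 to 16.2 and 13.3 CPM, a log2 change of 1.48 (adjusted p = 5.5e-07), and in the SNU-449 nucleus from 9.43 and 7.32 to 15.5 and 15.9, a change of 0.90 (adjusted p = 6e-06). ZNF230 rose from 2.17 and 3.15 to 7.76 and 7.23 CPM in the HepG2 nucleus, a change of 1.49, and from 14.6 and 16.9 to 29.2 and 31.0 in the SNU-449 nucleus, a change of 0.93. ZNF345 rose by 1.34 and 1.53. ZNF577 rose in the SNU-449 nucleus from 21.9 and 22.1 to 44.9 and 51.0 CPM (log2 change 1.12, adjusted p = 8.1e-10). The 6 that fell in both nuclei were ZNF526, ZNF93, ZNF600, ZNF121, ZNF468 and ZNF486. ZNF93, known for silencing LINE-1 elements, changed by -0.60 and -0.57 in HepG2 and SNU-449, respectively.

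A set of KRAB members fell by more in the cytoplasm of SNU-449 than in its nucleus. ZNF426 went from 19.6 and 21.5 to 8.12 and 5.72 CPM, a log2 change of -1.57 ± 0.17 (adjusted p = 7.8e-10). ZNF28 went from 13.1 and 15.1 to 4.80 and 5.58 CPM, a change of -1.44 ± 0.17 (adjusted p = 1.3e-08), with a nuclear change of -0.00. ZNF101 went from 14.0 and 14.7 to 5.03 and 5.51 CPM, a change of -1.44 ± 0.16 (adjusted p = 4e-09). In each case both siPANAD libraries lay below both NC libraries, a separation that the rule for naming the largest called changes required. The nuclear changes of ZNF426 and ZNF101 were -0.36 and -0.33. ZNF304 went from 3.52 and 2.62 to 0.851 and 1.22 CPM, a change of -1.55 ± 0.31 (adjusted p = 7.8e-05). ZNF585B fell in the cytoplasm from 3.15 and 2.34 to 1.24 and 1.07 CPM, a change of -1.24 ± 0.29, and rose in the nucleus from 20.0 and 20.7 to 29.3 and 30.8, a change of 0.56 ± 0.12; 26.6% of its 50-base words occur elsewhere. ZNF726 did the reverse of this set, rising from 7.11 and 7.65 to 17.3 and 22.2 CPM in the cytoplasm, a change of 1.42 (adjusted p = 5.7e-09), with -0.05 in the nucleus.

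The test of the difference between fractions gave the following. In SNU-449, siPANAD shifted the ratio of nucleus to cytoplasm upwards for 28 of 226 members (12.4%, against 9.69% of all genes) and downwards for 9 (3.98% against 10.5%). Of the 191 KRAB members, 25 shifted upwards and 3 downwards. Of the 35 without the motif, 3 shifted upwards and 6 downwards. In HepG2 the split was not of this kind, with 4 upwards and 3 downwards of 172 KRAB members and 2 and 1 of 35 without the motif. The difference between the classes was not tested. In SNU-449, shifts were 1.81 ± 0.32 for ZNF585B (adjusted p = 5.9e-05), 1.45 for ZNF304, 1.44 ± 0.23 for ZNF28 (adjusted p = 1.4e-05), 1.21 for ZNF426, 1.11 for ZNF101 and -1.47 for ZNF726. ZNF genes of other chromosomes had 45 upward and 16 downward of 226. The SNU-449 total of 37, where 20.2% of all genes were called, went to 24 without nucleus siPANAD replicate 2. In HepG2 6 members shifted upwards (2.90% against 4.91%) and 4 downwards (1.93% against 4.98%), 10 in all where 9.89% of all genes were called, and this count rested on single libraries. It was 20 without cytoplasm NC replicate 1, 5 and 6 without cytoplasm siPANAD replicates 1 and 2, and 5 and 3 without nucleus siPANAD replicates 1 and 2.

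The effect of siPANAD was compared between the lines next. In the nucleus the shares of members called were near those over all genes. Of 231 tested, the cytoplasmic effect was higher in SNU-449 for 11 (4.76%, against 9.17% of all genes) and lower for 18 (7.79% against 8.98%), and the nuclear effect higher for 25 (10.8% against 11.3%) and lower for 17 (7.36% against 9.61%). The cytoplasmic total of 29 (18.2% of all genes called) became 18 without HepG2 cytoplasm siPANAD replicate 2 and 19 without SNU-449 cytoplasm siPANAD replicate 1, and the nuclear total of 42 (20.9% of all genes called) became 27 without HepG2 nucleus NC replicate 1. Called in opposite directions in the cytoplasm were ZNF211 and ZNF784, higher in HepG2 and lower in SNU-449 (0.990% of 202, against 1.37% of genes), and ZNF146, ZNF792 and ZNF587B, lower and higher (1.49% against 1.56%). In the nucleus ZNF792 and ZNF529 were lower in HepG2 and higher in SNU-449 (0.990% against 2.16%). ZNF792 thus moved in opposite directions in both fractions. It fell in the HepG2 nucleus from 3.74 and 3.76 to 2.07 and 1.80 CPM and rose in the SNU-449 nucleus from 2.58 and 4.09 to 5.94 and 6.23, a difference between the lines of 1.80 ± 0.33 (adjusted p = 3.9e-05). Its cytoplasmic difference of 1.23 ± 0.33 (adjusted p = 0.0049) was lost without HepG2 cytoplasm siPANAD replicate 1. ZNF587B fell from 10.3 and 11.2 to 7.04 and 7.29 CPM in the HepG2 cytoplasm and rose from 18.3 and 18.0 to 36.9 and 40.5 in SNU-449, a difference of 1.64 ± 0.21 (adjusted p = 6.1e-08); it shares 38.2% of its 50-base words with other genes. ZNF529 fell by 0.71 in the HepG2 nucleus and rose by 0.45 in the SNU-449 nucleus, a difference of 1.15 (adjusted p = 7.9e-06). ZNF274, which binds the 3′ ends of zinc finger genes and recruits SETDB1 there, fell in the HepG2 nucleus from 88.9 and 77.5 to 50.5 and 49.3 CPM (log2 change -0.74, adjusted p = 2.4e-05) and had a change of -0.11 (adjusted p = 0.36) in the SNU-449 nucleus, a difference of 0.61 (adjusted p = 0.0029).

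Along the chromosome, the run ZNF175 to ZNF331 (chr19:51571298-53580269) had more falls than rises in HepG2. There 10 of 31 tested members fell and 1 rose in the cytoplasm (32.3% and 3.23%, against 24.2% and 23.7% of all genes and 29.5% and 24.8% of protein-coding genes), and 11 fell and 4 rose in the nucleus (35.5% and 12.9%, against 23.6% and 22.0% of all genes). The cytoplasmic fallers were ZNF614, ZNF841, ZNF808, ZNF83, ZNF611, ZNF600, ZNF468, ZNF765, ZNF761 and ZNF813. ZNF808, a silencer needed for pancreas development, had a change of -1.08 that was lost without siPANAD replicate 2 of that fraction and with DESeq2, and ZNF611 one of -1.33 that was lost without siPANAD replicate 1. ZNF841 went from 39.6 and 35.4 to 22.8 and 20.7 CPM in the HepG2 nucleus (log2 change -0.79, adjusted p = 7.4e-05), against 31.2 and 36.1 and then 30.7 and 34.3 in SNU-449. In SNU-449 the run had 8 falls and 2 rises of 35 in the cytoplasm (22.9% and 5.71%, against 20.1% and 19.6% of all genes) and 4 falls and 5 rises in the nucleus (11.4% and 14.3%, against 23.9% and 22.1%). The last run, ZNF264 to ZNF446 (chr19:57191500-58481230), had 10 rises and 0 falls of 42 in the SNU-449 nucleus, where 22.1% of all genes rose and 23.9% fell, so its rises were near the share over all genes. These runs were picked out after their counts were seen.

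Of the partners through which KRAB proteins act, TRIM28 was not called in any comparison, with log2 changes of 0.08, -0.23, 0.07 and -0.13 in HepG2 cytoplasm, HepG2 nucleus, SNU-449 cytoplasm and SNU-449 nucleus (adjusted p = 0.64, 0.17, 0.60 and 0.23). Of 19 partner genes tested in HepG2, 5 rose and 3 fell in the cytoplasm (23.7% and 24.2% of all genes) and 1 rose and 2 fell in the nucleus (22.0% and 23.6% of all genes). Of 20 in SNU-449, 8 rose and 3 fell in the cytoplasm (19.6% and 20.1% of all genes) and 5 rose and 3 fell in the nucleus (22.1% and 23.9% of all genes). SETDB1 rose in the HepG2 cytoplasm by 0.49 (adjusted p = 0.0035) and in the SNU-449 nucleus by 0.39 (adjusted p = 0.003). CBX5, the heterochromatin protein HP1 alpha, rose by 0.87 and 0.64 in HepG2 and by 0.45 in the SNU-449 cytoplasm, and fell by 0.25 in the SNU-449 nucleus. DNMT1, the maintenance DNA methyltransferase, fell in HepG2 by 0.96 in the cytoplasm (adjusted p = 1.2e-06) and 0.60 in the nucleus, with changes of -0.15 and -0.03 in SNU-449 that were not called.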

How the data were processed

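RNA from cytoplasmic and nuclear extracts of 2 cell lines was sequenced in 16 directional libraries on an Illumina NovaSeq, per the labels' protocols. The deposited values are raw read counts per gene, made by the authors with Trim Galore 0.6.4 and HISAT2 2.2.1 on hg38, per the submitters' processing notes; the counting program, annotation and strand setting are not given in the sources used here. Counts were taken as deposited, except that 1 entry broken over lines was dropped. Total counts ran from 16238235 to 30321908 per library.

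Genes were filtered with filterByExpr (minimum count 10) and fitted with edgeR 4.0.16 in R 4.3.3 (limma 3.58.1), with TMM scaling, robust dispersions and the quasi-likelihood test, on the 8 libraries of a line, and on all 16 for differences between lines (SNU-449 minus HepG2). Adjusted p-values are Benjamini-Hochberg values over all genes tested, with a threshold of 0.05. Errors are SE for log2 changes and SD over 2 libraries for levels. The fit was also run on simulated counts. Those had no difference between NC fractions and few changed genes, unlike these data, so that run cannot gauge the calls made here. Symbols and exons came from GENCODE 29; 58378 of 67938 identifiers matched it. KRAB motifs and fingers were counted in translated GENCODE 29 coding sequences, where a protein table had been planned. Alternatives were DESeq2 1.42.0, RLE size factors, no filter on low counts, the replicate number as a block, and each library left out.

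The members, lists and tests were chosen with earlier results of these data known. Genes named with values were picked by rule: the highest per length, the extremes of the nucleus to cytoplasm ratio, the largest called changes, shifts and line differences at 1 CPM or more, those called the same way in all 4 siPANAD comparisons, and the partner list. To be named for a largest siPANAD change, a gene also needed both libraries of 1 group above both of the other. Further members named in counts, with ZNF93 and the opposite movers, were chosen after their values were seen.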

Additional observations from a re-analysis of the deposited data

Results flagged for a closer look

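The effect of siPANAD differed between the fractions of a line, by the test of the difference itself, for the members below; each value is the log2 change in the nucleus minus that in the cytoplasm. In SNU-449 the values were 1.81 for ZNF585B, 1.45 for ZNF304, 1.44 for ZNF28 and 1.25 for ZNF256, and -1.47 for ZNF726, -0.85 for ZNF829, -0.80 for ZNF358 and -0.64 for ZNF283. ZNF283 was lost when any of 7 libraries was left out, all but nucleus NC replicate 2, and the other 7 members held without each library. In HepG2 the values were 1.65 for ZNF559, 1.17 for ZNF100, 0.84 for ZNF426 and 0.84 for ZNF83, and -1.13 for ZNF416, -0.70 for ZNF561, -0.68 for ZNF581 and -0.63 for ZNF274. Each of these 8 was lost without at least 1 library: ZNF559 without cytoplasm NC replicate 2, and the others without siPANAD replicate 1 or 2 of the cytoplasm among further libraries.

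The effect of siPANAD differed between the lines, by the same kind of test; each value is the log2 change in SNU-449 minus that in HepG2. In the cytoplasm it was 1.64 for ZNF587B, 1.23 for ZNF792, 1.21 for ZNF850 and 1.07 for ZNF841, and -1.59 for ZNF433, -1.30 for ZNF570, -1.26 for ZNF85 and -1.25 for ZNF256. ZNF587B and ZNF433 held without each library. ZNF256, ZNF570, ZNF841 and ZNF85 were lost without HepG2 cytoplasm NC replicate 2, ZNF792 without HepG2 cytoplasm siPANAD replicate 1, and ZNF850 without HepG2 cytoplasm siPANAD replicate 2; ZNF841, ZNF85 and ZNF850 were also lost without SNU-449 cytoplasm NC replicate 1, ZNF85 also without siPANAD replicate 1 of either cytoplasm, and ZNF850 also without SNU-449 cytoplasm siPANAD replicate 2. In the nucleus it was 1.80 for ZNF792, 1.21 for ZNF155, 1.15 for ZNF529 and 1.11 for ZNF626, and -1.61 for ZNF671, -1.14 for ZNF506, -1.09 for ZNF563 and -1.08 for ZNF442. ZNF792, ZNF529 and ZNF671 held without each library. ZNF626, ZNF506 and ZNF442 were lost without HepG2 nucleus NC replicate 1, ZNF506 also without HepG2 nucleus siPANAD replicate 2, ZNF442 also without SNU-449 nucleus siPANAD replicate 1, and ZNF563 without SNU-449 nucleus NC replicate 1 or siPANAD replicate 2. ZNF155, at under 1 CPM in HepG2, was lost without most single libraries.

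The NC ratio of nucleus to cytoplasm differed between the lines, as SNU-449 minus HepG2 on the log2 scale, by 2.48 for ZNF350, 2.40 for ZNF331, 2.22 for ZNF577 and 2.19 for ZNF823, and by -2.21 for ZNF814, -2.12 for ZNF586, -1.84 for ZNF324 and -4.19 for ZNF582. The ZNF582 value is fitted on counts of 0 and 1 in the HepG2 NC cytoplasm and 7 and 8 in the nucleus, so its size depends on the prior count. These 8 held without each library.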

How the results depend on the processing

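The number of members called was within 1.5 times the main count with RLE size factors, without the filter on low counts and with the replicate block in all 11 comparisons, and with DESeq2 in all but the HepG2 nucleus, where siPANAD against NC gave 47 instead of 83; the cause was not tested. Leaving out each library in turn gave 42 to 75 calls in the HepG2 cytoplasm (main 76), 52 to 97 in the HepG2 nucleus (83), 55 to 75 in the SNU-449 cytoplasm (74), 46 to 75 in the SNU-449 nucleus (71), 150 to 170 and 183 to 196 for the NC ratio in HepG2 and SNU-449 (169 and 196), 3 to 20 and 24 to 37 for the shift (10 and 37), and 18 to 31, 27 to 48 and 75 to 88 for the line differences of the cytoplasmic effect, the nuclear effect and the NC ratio (29, 42 and 88). For the members named by rule, 151 of the alternative values were no longer called, 1661 kept direction and call, and 0 reversed. The sample titles do not say whether libraries with the same replicate number came from the same culture. Over genes, the deviations of same-numbered libraries from their group means had correlations of -0.125 to 0.0845. Such values show no strong shared variation but cannot decide whether the libraries are paired. With the replicate block the calls were 73, 83, 71 and 71 for siPANAD against NC in the order above. Depth limits the cytoplasmic values most, with a median of 36 to 78 counts per member.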
